A study of Mus musculus with 144 samples.

Results

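Family 4 of the cytochromes P450 is represented here by 10 genes, *Cyp4a10*, *Cyp4a14*, *Cyp4a12a*, *Cyp4a12b*, *Cyp4a31*, *Cyp4a32*, *Cyp4f13*, *Cyp4f14*, *Cyp4v3* and *Cyp4b1*. They were picked by symbol out of the 55359 genes counted in each library. The rule uses no expression value, but the family was chosen with earlier results of these data known. All 10 were counted in every RNA-Seq library.

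CYP4 enzymes place a hydroxyl group on or near the terminal methyl carbon of a fatty acid, which opens the omega-oxidation route to dicarboxylic acids that peroxisomes then shorten. The route needs electrons from cytochrome P450 reductase and, after the first step, alcohol and aldehyde dehydrogenases. In mouse liver *Cyp4a10* and *Cyp4a14* are classical targets of the fatty acid receptor PPAR alpha, and *Cyp4a12a* and *Cyp4a12b* are the male, androgen-dependent arachidonic acid hydroxylases.

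The libraries were made from primary hepatocytes of male mice aged 28 days, plated on type I collagen in Williams E medium. Hepatocytes labelled WT came from strain C57BL/6NCrl with a wild-type genotype, and those labelled DRE-null came from the Pkm-delta-DRE strain, in which a dioxin response element (DRE) of *Pkm* is missing. Each received either vehicle (0 nM) or 10 nM of TCDD, the dioxin that activates the aryl hydrocarbon receptor (AHR), and was harvested at 2, 4, 8 and 12 h and then every 24 h up to 120 h, with 4 libraries in each of the 36 groups. The labels do not say whether the 4 libraries came from separate animals or cultures, so a p-value measures only the spread between these libraries, which may be technical. The labels and the protocol also give different plate formats for these cultures.

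Libraries held from 13588848 to 30719161 counts on genes, with a median of 18011825. In library P172_65 (WT, TCDD, 96 h) 63.34% of the counts by strand fell on 1 strand, against at most 51.49% in the others. Expression of *Pkm* ran against the genotype labels: with TCDD its log2 changes from 8 to 48 h were 1.24, 1.68, 1.34 and 0.97 in libraries labelled DRE-null, and -0.49, 0.17, 0.01 and -0.03 in those labelled WT. None of them passed the test. Directions given for a genotype therefore hold for the labels only. Single libraries are named as in their labels. The profile of library P172_80 (DRE-null, vehicle, 4 h) correlated with the median profile of the 96 h libraries at r = 0.975 and with that of its own hour at 0.763. Library P172_104 (DRE-null, vehicle, 96 h) did the opposite, at 0.98 with 4 h and 0.757 with its own hour. Library P172_97 (DRE-null, vehicle, 72 h) was most like 120 h. Over the 12220 genes used, these 3 were the only libraries most like an hour at least 2 steps away, 26 were most like a neighbouring hour and the rest most like their own. *Cyp1a1*, the standard AHR target, also went against the treatment label in 4 libraries labelled WT: 3252 CPM in vehicle library P172_21 (48 h), 1640 CPM in vehicle library P172_31 (96 h), 27.6 CPM in TCDD library P172_64 (72 h) and 1.36 CPM in TCDD library P172_40 (2 h). CPM stands throughout for counts scaled to sequencing depth, with TMM factors over all libraries.

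The label of hepatocytes was checked at 2 h, when 6 hepatocyte markers summed to 99910 to 229600 CPM. That sum ran from 2723 to 15720 CPM at 120 h, while 4 cholangiocyte markers summed to 4.88 to 37.4 CPM at 2 h and to 246 to 1071 CPM at 120 h. Most of that sum was *Spp1*, with a median of 10.2 CPM over the libraries of 2 h and 466.5 CPM over those of 120 h. The medians of *Krt19* (0.81 to 27.9 CPM) and *Krt7* (0.044 to 11.8 CPM) also rose, and that of *Epcam* fell from 2.77 to 1.06 CPM. The 5 stellate or fibroblast markers summed to 4.17 to 13.9 CPM at 2 h and 15.3 to 231 CPM at 120 h. The 5 endothelial markers summed to 179 to 444 CPM at 2 h and 29.8 to 156 CPM at 120 h, and the 6 macrophage markers to 87.8 to 375 CPM at 2 h. All 4 neutrophil markers were at 0 in some libraries at 120 h, where their sum did not exceed 0.126 CPM. In such bulk cultures a lower level of a gene can come from fewer cells of a type or from less RNA per cell, which cannot be told apart.

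Coordinates below are those of GRCm38, although the counts follow GRCm39. The genes *Cyp4a12a* (ENSMUSG00000066071), *Cyp4a12b* (ENSMUSG00000078597), *Cyp4a14* (ENSMUSG00000028715), *Cyp4a10* (ENSMUSG00000066072), *Cyp4a31* (ENSMUSG00000028712), *Cyp4a32* (ENSMUSG00000063929) and *Cyp4b1* (ENSMUSG00000028713) stand in this order on chromosome 4, from position 115299046 to 115647723. *Cyp4f14* (ENSMUSG00000024292) at chr17:32905070-32917342 and *Cyp4f13* (ENSMUSG00000024055) at chr17:32924688-32947402 are neighbours, and *Cyp4v3* (ENSMUSG00000079057) lies at chr8:45304944-45333216. The coding sequences of *Cyp4a12a* and *Cyp4a12b* are 98.5% identical, and *Cyp4a10* is 96.6% identical to *Cyp4a31* and 97.2% to *Cyp4a32*. *Cyp4a14* shares 75.1% with *Cyp4a10*, and *Cyp4f13* and *Cyp4f14* share 78.2%.

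A pair of reads that lay wholly in stretches shared by 2 genes could be assigned to neither, because only uniquely mapped pairs were counted. The shares below are for single stretches, so they are not shares of pairs lost. Of all stretches of 150 bases in the *Cyp4a12a* transcript, 25.6% also occur in *Cyp4a12b*, and 25.9% of those of *Cyp4a12b* occur in *Cyp4a12a*. The part shared with any other of the 10 genes was 4.04% for *Cyp4a10*, 3.54% for *Cyp4a31* and 6.96% for *Cyp4a32*, and 0% for the other 5. Stretches shared with genes outside these 10 were not searched for. A coding stretch of exon 6 (chr4:115326628-115326687 and chr4:115432881-115432940, plus strand) shows letters that separate the Cyp4a12 pair. Another, of exon 2 (chr4:115519640-115519699, chr4:115565020-115565079 and chr4:115602270-115602329, plus strand), shows letters that separate *Cyp4a10*, *Cyp4a31* and *Cyp4a32*. Capitals mark the 4 positions that differ in the first set and the 9 that differ in the second. The stretches are not typical of the coding sequences. The Cyp4a12 pair differs at 4 of the 60 bases shown but is 98.5% identical over its coding sequence. Most of the 9 positions set *Cyp4a32* apart from *Cyp4a10* and *Cyp4a31*.
Cyp4a12a: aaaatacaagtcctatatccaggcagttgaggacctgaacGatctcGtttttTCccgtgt
Cyp4a12b: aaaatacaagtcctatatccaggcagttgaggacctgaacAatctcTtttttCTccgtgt
Cyp4a10: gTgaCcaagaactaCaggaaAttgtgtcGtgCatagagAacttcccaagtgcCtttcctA
Cyp4a31: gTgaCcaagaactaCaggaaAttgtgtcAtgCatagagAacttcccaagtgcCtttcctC
Cyp4a32: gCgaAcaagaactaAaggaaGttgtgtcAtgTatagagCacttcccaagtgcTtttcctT

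Promoter windows from 250 bases before to 50 after the start, taken from RefSeq (GRCm38.p6), were at hand for 5 of the 10 genes (*Cyp4a32*, *Cyp4b1*, *Cyp4f13*, *Cyp4f14* and *Cyp4v3*), in 8 windows. They were searched on both strands for GCGTG, the core to which the AHR binds, and for AGGTCA repeated after any 1 base, the direct repeat that PPAR alpha and its partner RXR recognise. GCGTG was found at bases -16 to -12 of *Cyp4v3* and at -237 to -233 in 1 of the 4 windows of *Cyp4f14*, and 32.58% of 32544 mouse promoters of the same length hold it. The repeat was in none of the 8 windows and in 0.04% of all. The windows around both matches are shown because TCDD is the treatment tested, and capitals mark the match (GCGTG, or CACGC where it lies on the other strand). The first is at chr8:45333164-45333193 and the second at chr17:32917577-32917606, both written along the minus strand of the gene.
Cyp4v3: agtttgtccccaggGCGTGgtgcagacgct
Cyp4f14: ttacttagtgtacCACGCccttggaggagc

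At 2 h in vehicle the family covered a wide range of levels per kilobase of exon. In libraries labelled WT, *Cyp4a12a* led with 317.5 ± 85.6 CPM per kb (SD, n = 4), followed by *Cyp4f14* with 198.8 ± 28.7 and *Cyp4v3* with 178.5 ± 17.1 CPM per kb. *Cyp4a10*, *Cyp4a12b* and *Cyp4a14* came next with 112.7, 104.7 and 66.4 CPM per kb, and each of these 6 overlapped the next in its range over libraries. *Cyp4f13* reached 27.9 ± 3.54, *Cyp4a32* 22.4 ± 3.36, *Cyp4b1* 11.7 ± 2.81 and *Cyp4a31* 2.47 ± 1.37 CPM per kb, and the ranges of the last 3 did not overlap each other. In libraries labelled DRE-null the order was the same except that *Cyp4a10* (195.5 CPM per kb) stood above *Cyp4v3* (188.8 CPM per kb), a pair whose ranges overlapped. At 120 h the order had turned: *Cyp4v3* led with 12.4 CPM per kb in libraries labelled WT, then *Cyp4f13* with 10.4 and *Cyp4b1* with 5.45, while *Cyp4a12a* was at 0.697, *Cyp4a10* at 0.0959 and *Cyp4a14* at 0.0127 CPM per kb.

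Of the 40 courses over the hours (10 genes in 4 arms of label and treatment), 34 had their highest group mean at 2 h and 23 their lowest at 120 h. *Cyp4b1* was the gene that differed in all arms, with its highest mean at 12 h in both WT arms (73.1 CPM in vehicle and 54.8 CPM with TCDD) and at 24 h in both DRE-null arms (91.6 and 76.8 CPM). *Cyp4f13* reached its lowest mean early, at 24 h with TCDD for WT and at 48 h in the other 3 arms (40.4 to 45.5 CPM), and *Cyp4f14* reached its lowest at 72 h in 3 arms and at 120 h with TCDD for WT (0.702 CPM). *Cyp4a32* was lowest at 72 or 96 h (0.541 to 0.815 CPM). Over all 36 groups *Cyp4a14* had at least 1 library at 0 in 10 groups, *Cyp4a10* in 7, *Cyp4a12b* in 4 and *Cyp4a32* in 1.

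The extremes of the other members were as follows. *Cyp4a10* ran from 412.4 CPM (DRE-null, vehicle, 2 h) to 0.117 CPM (DRE-null, TCDD, 120 h), and *Cyp4a14* from 240.9 CPM (WT, TCDD, 2 h) to 0.0112 CPM (DRE-null, vehicle, 120 h). *Cyp4a12a* ran from 869.8 CPM (DRE-null, vehicle, 2 h) to 1.04 CPM (WT, TCDD, 96 h), and *Cyp4a12b* from 322.5 CPM (DRE-null, vehicle, 2 h) to 0.0268 CPM (DRE-null, TCDD, 120 h). *Cyp4v3* ran from 719.0 CPM (DRE-null, vehicle, 2 h) to 44.5 CPM (same arm, 120 h), and *Cyp4f14* started at 711.0 CPM in that arm. *Cyp4a31* stayed between 15.02 CPM (WT, TCDD, 2 h) and 0.425 CPM (DRE-null, vehicle, 120 h), and the lowest mean of *Cyp4b1* was 11.5 CPM (WT, TCDD, 96 h).

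**Figure D1:**
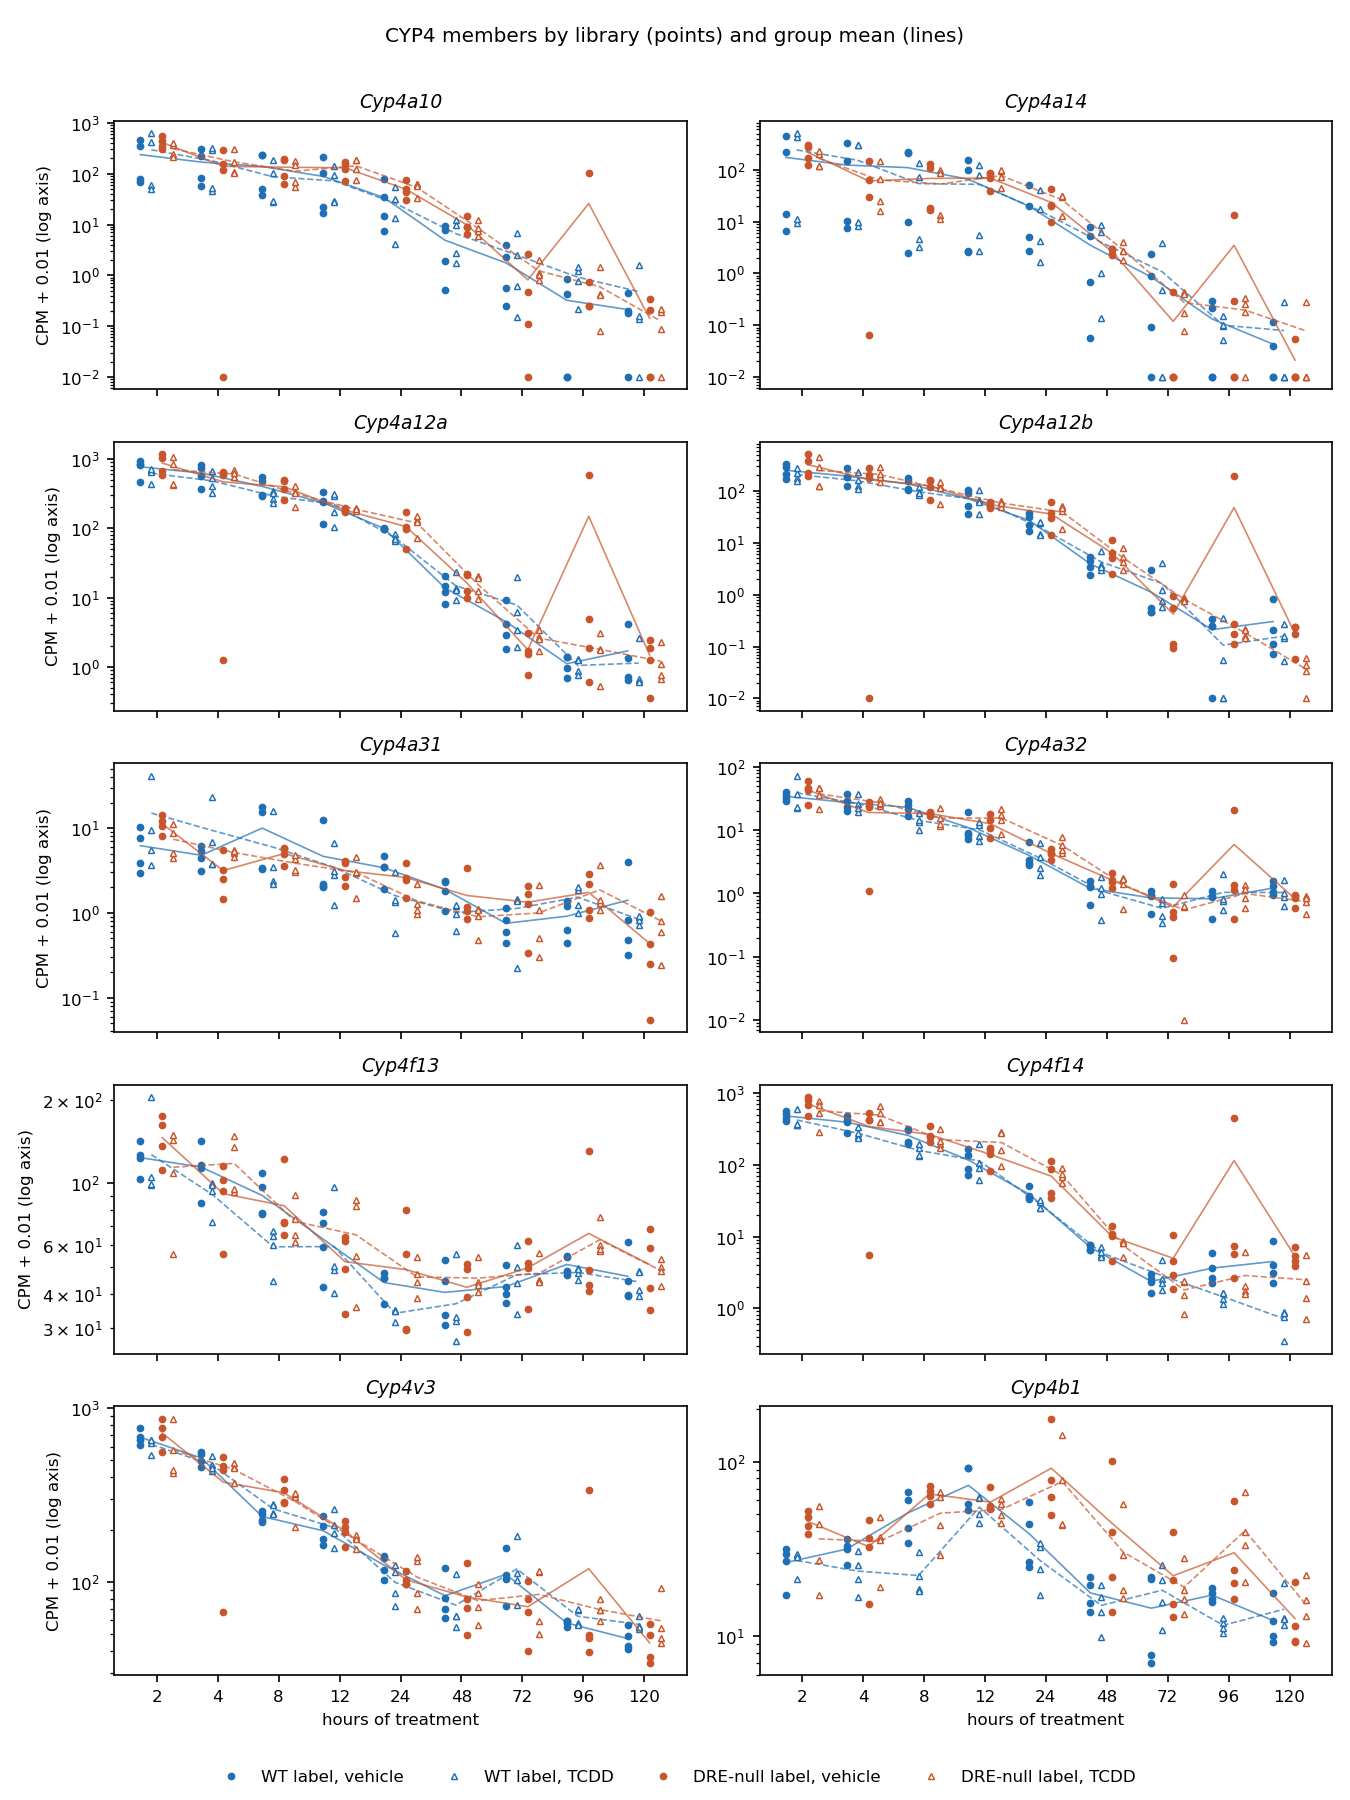
Each panel plots 1 CYP4 gene in CPM plus 0.01 on a log axis against hours of treatment, with a point for each library and a line through the group means, by label and treatment. All 10 genes end lower than they began, *Cyp4b1* after a rise, and the peak at 96 h in the DRE-null vehicle line comes from library P172_104.

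The first comparison asked what time in culture did without TCDD. From 2 to 120 h in vehicle all 10 genes fell under both labels (edgeR's quasi-likelihood test). A call here needs a Benjamini-Hochberg adjusted p under 0.05 together with at least a 1.5-fold difference. For WT 57.9% of the genes tested were called, and 24.5% called lower, and for DRE-null 49.4% and 22.7%. The median log2 change over the 10 genes was -5.74 for WT and -6.40 for DRE-null, against 0.21 and 0.24 over all genes tested. The members are taken below by their roles.

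*Cyp4a14* and *Cyp4a10*, the PPAR alpha-responsive fatty acid hydroxylases, fell most. *Cyp4a14* measured 6.50, 14.1, 453.7 and 216.8 CPM at 2 h and 0, 0, 0.103 and 0.029 CPM at 120 h in libraries labelled WT. Every library at 120 h lay far below the lowest at 2 h, and at 120 h the group held 4 counts in all against 7659 at 2 h. The ratio of the pooled CPM was 5450 (exact 95% interval 2129 to 20000, counting error only) and the fitted log2 change -12.03 (SE 2.45, adjusted p = 1.09e-04 by edgeR's quasi-likelihood test). Under the DRE-null label a single count was left at 120 h, for a pooled ratio of 22100 (3966 to 872800). *Cyp4a10* measured 68.7, 80.2, 456.1 and 345.4 CPM at 2 h and 0.189, 0, 0.446 and 0.174 CPM at 120 h, without overlap. Its log2 change was -10.06 (SE 1.37, adjusted p = 2.54e-07 by edgeR's quasi-likelihood test), with a pooled ratio of 1189 (805.6 to 1838), and -11.55 under the DRE-null label.

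The male arachidonic acid hydroxylases followed. *Cyp4a12a* read 820.3, 935.8, 466.8 and 853.2 CPM at 2 h, between 98.3 and 100.4 CPM in all 4 libraries at 24 h, and 0.693, 4.08, 1.34 and 0.638 CPM at 120 h in libraries labelled WT. The 3 sets did not overlap. The log2 change to 120 h was -8.83 (SE 0.58, adjusted p = 3.09e-14 by edgeR's quasi-likelihood test) for *Cyp4a12a* and -9.76 (SE 0.66, adjusted p = 5.76e-14) for *Cyp4a12b*. Because the transcripts of the pair share long stretches, its counts were also summed, and the sum changed by -9.00 (SE 0.60). The same sum for *Cyp4a10*, *Cyp4a31* and *Cyp4a32* changed by -6.59 (SE 0.81).

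*Cyp4f14*, whose product hydroxylates leukotrienes and fatty acids, measured 442.8, 557.8, 405.4 and 517.8 CPM at 2 h and 2.24, 8.65, 3.05 and 3.95 CPM at 120 h. Its log2 change was -6.71 (SE 0.38, adjusted p = 8.00e-16 by edgeR's quasi-likelihood test). *Cyp4v3*, the mouse counterpart of a human gene mutated in a crystalline retinal dystrophy, measured 678.3, 770.1, 653.7 and 617.1 CPM at 2 h and 42.5, 56.4, 48.9 and 41.1 CPM at 120 h. These groups too lay far apart, with a log2 change of -3.80 (SE 0.20, adjusted p = 8.07e-17 by edgeR's quasi-likelihood test). *Cyp4a32*, a close relative of *Cyp4a10*, changed by -4.78 (SE 0.37) and kept a mean of 1.21 ± 0.268 CPM (SD, n = 4) at 120 h. *Cyp4a31*, the other relative, was low from the start, with 2.95, 3.87, 10.4 and 7.54 CPM at 2 h and 0.473, 4.00, 0.309 and 0.813 CPM at 120 h. Library P172_34 (WT, vehicle, 120 h) lay within the 2 h range, so the groups overlapped although the log2 change of -2.11 passed (SE 0.68, adjusted p = 0.00749 by edgeR's quasi-likelihood test).

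The remaining genes lost least. *Cyp4f13*, the other CYP4F gene of the set, measured 126.8, 141.7, 103.6 and 123.4 CPM at 2 h and 39.2, 61.7, 39.7 and 44.4 CPM at 120 h. The groups did not overlap, and the log2 change was -1.37 (SE 0.19). Its change was -1.49 already at 24 h, and the step from 24 to 120 h was 0.12 (adjusted p = 0.638 by edgeR's quasi-likelihood test). *Cyp4b1*, best known as a lung enzyme that activates furan toxins, behaved differently from the others. Its level in libraries labelled WT went from 26.4 ± 6.33 CPM at 2 h to 73.1 ± 21.2 CPM at 12 h and 12.3 ± 3.84 CPM at 120 h (SD, n = 4). The 2 h libraries measured 29.6, 27.1, 31.6 and 17.3 CPM, those at 12 h 56.7, 52.7, 91.3 and 91.6 CPM, and those at 120 h 10.1, 12.2, 17.7 and 9.20 CPM. Every 12 h library was above every 2 h library, and 1 of the 120 h libraries overlapped the 2 h group. The rise to 12 h was not tested, and from 2 to 120 h the log2 change was -1.05 (SE 0.31, adjusted p = 0.00388 by edgeR's quasi-likelihood test).

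The mild changes rest on the scaling. With library totals in place of TMM factors the median over all genes moved from 0.21 to 1.43 for WT and from 0.24 to 1.57 for DRE-null on the log2 scale. In libraries labelled WT, *Cyp4b1* then turned to 0.16 (adjusted p = 0.661), *Cyp4f13* went to -0.16 (adjusted p = 0.352) and *Cyp4a31* to -1.01 (adjusted p = 0.17), all by edgeR's quasi-likelihood test. Under the DRE-null label *Cyp4b1* (-0.53, adjusted p = 0.309) and *Cyp4f13* (-0.18, adjusted p = 0.461 by edgeR's quasi-likelihood test) lost their calls. Relative to the median gene these 3 were still lower, and the other 7 genes remained called lower under both labels.

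The timing of the loss was uneven. From 2 to 24 h, 7 of the 10 genes fell in libraries labelled WT, where 45.8% of the genes tested were called and 3171 of 15862 called lower. The log2 changes of those that passed ran from -3.63 for *Cyp4f14* to -1.49 for *Cyp4f13*. *Cyp4a14* had -3.15 (adjusted p = 0.0715), *Cyp4a31* -0.86 (adjusted p = 0.277) and *Cyp4b1* 0.54 (adjusted p = 0.141 by edgeR's quasi-likelihood test). Under the DRE-null label 6 genes fell (*Cyp4a14*, *Cyp4a31*, *Cyp4a32*, *Cyp4f13*, *Cyp4f14* and *Cyp4v3*), where 33.2% of the genes tested were called, and 15.2% called lower. Without libraries P172_80 and P172_104, whose profiles fit another hour and which enter the estimate of the spread, 9 genes fell, all except *Cyp4b1*. From 24 to 120 h, 8 genes fell under each label, with 35.6% of the genes called for WT (18.6% lower) and 23.4% for DRE-null. The exceptions were *Cyp4f13* under both labels (0.12 and 0.01), *Cyp4a31* for WT (-1.25) and *Cyp4v3* for DRE-null (-1.26). *Cyp4a14* changed by -8.88 and *Cyp4a10* by -7.24 in that second interval in libraries labelled WT, while *Cyp4v3* changed by -1.36.

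**Figure D2:**
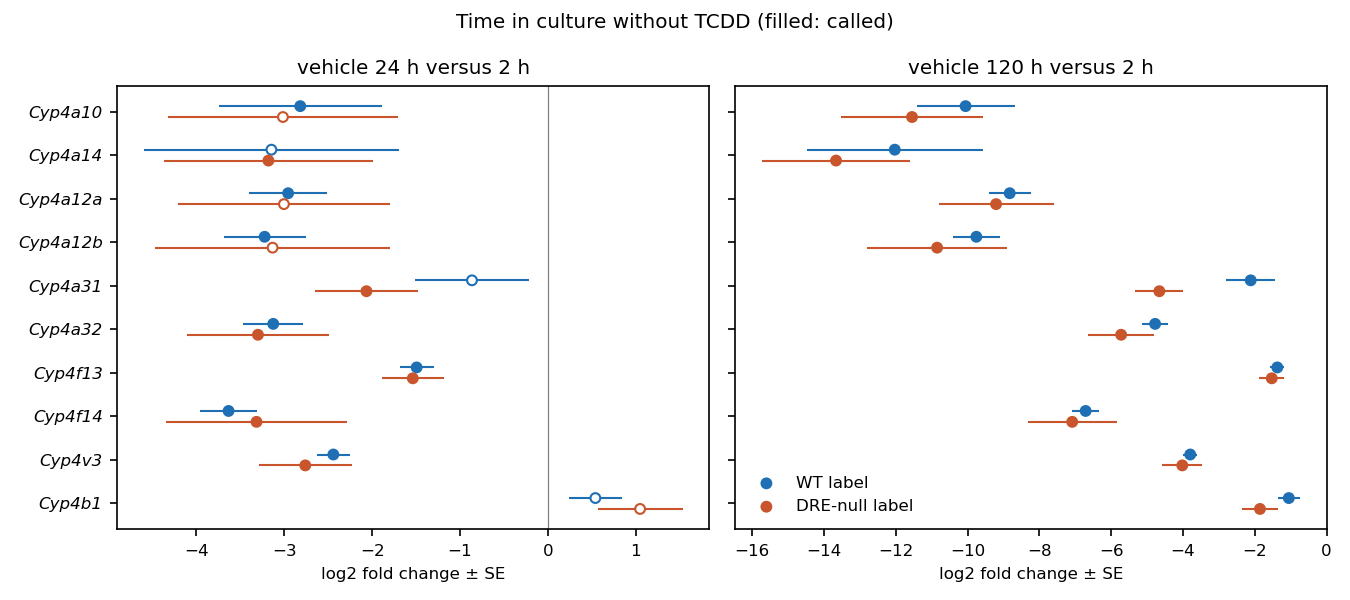
The log2 fold change of each CYP4 gene in vehicle is plotted with its SE for 24 h against 2 h (left) and 120 h against 2 h (right), filled where the change passed the test, in blue for the WT and orange for the DRE-null label. At 120 h all 10 genes lie below 0 under both labels, from -13.66 for *Cyp4a14* to -1.05 for *Cyp4b1*.

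Other genes of the route were followed in lists that were drawn up with earlier results of these data known. Beside their counts stand the shares over all genes tested from 2 to 120 h, of which 24.5% fell and 33.4% rose for WT, and 22.7% fell and 26.8% rose for DRE-null. Of 18 PPAR alpha targets outside the family, 10 fell and 2 rose from 2 to 120 h in libraries labelled WT, with a median log2 change of -1.43. The liver fatty acid binding protein gene *Fabp1* changed by -11.81 and the peroxisomal beta-oxidation genes *Acaa1b* and *Ehhadh* by -5.87 and -4.49, whereas the fatty acid transporter gene *Cd36* rose by 4.73 and the pantetheinase gene *Vnn1* by 1.26. Under the DRE-null label 11 fell and *Cd36* rose. Of 13 tested partners of omega-oxidation, 11 fell and 2 rose for WT, with a median of -2.58. *Por*, which encodes the P450 reductase, changed by -3.86 and the alcohol dehydrogenase gene *Adh4* by -3.97, while the fatty aldehyde dehydrogenase gene *Aldh3a2* rose by 1.58 and *Aldh1a1* by 1.51.

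Among 18 regulators, 9 fell and 4 rose under each label. *Ppara* itself changed by -1.90 for WT and -2.32 for DRE-null, *Rxra* by -1.59 and -1.42, and *Nr1i3*, which encodes the constitutive androstane receptor, by -8.37 and -8.40. *Ahr* rose by 1.12 and 1.34. Of the 11 other CYP4 genes listed, 3 passed the filter on low counts for this comparison: *Cyp4f15* fell with a log2 change of -6.19 for WT and -5.85 for DRE-null, *Cyp4f16* rose by 2.32 and 2.15, and *Cyp4f17* rose by 0.68 for WT and had 0.27 for DRE-null (adjusted p = 0.389 by edgeR's quasi-likelihood test). All 6 hepatocyte markers fell in both, with medians of -4.22 and -4.39, so the median CYP4 gene changed by more than the median hepatocyte marker, while *Cyp4b1*, *Cyp4f13* and *Cyp4v3* changed by less under both labels and *Cyp4a31* by less for WT. Whether the change of marker levels has a part in the loss of the CYP4 genes was not tested.

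The second comparison asked what TCDD did at each hour against vehicle of the same hour and label. Of 85 tests of a CYP4 gene in libraries labelled WT, 3 passed, all lower with TCDD: *Cyp4b1* at 8 h and *Cyp4f14* at 96 and 120 h. In libraries labelled DRE-null none of 84 tests passed edgeR's quasi-likelihood test, 4 had an unadjusted p under 0.05, and DESeq2 also called none. The share of all genes tested that was called for WT was 0% at 2, 4 and 72 h, and 0.0321%, 0.373% and 0.00763% from 12 to 48 h, and stands beside the calls for the other hours. For DRE-null it was 0% at 2 and 4 h, and from 8 to 120 h it took the values 0.106%, 0.0240%, 0.0160%, 0.404%, 1.13%, 0.0793% and 0.633% in the order of the hours.

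*Cyp4b1* at 8 h was the early exception. Vehicle libraries labelled WT measured 41.4, 34.1, 67.04 and 60.2 CPM and TCDD libraries 22.0, 18.5, 18.2 and 30.3 CPM. All 4 TCDD libraries lay below all 4 vehicle libraries, and the log2 change was -1.06 (SE 0.24, adjusted p = 0.00401 by edgeR's quasi-likelihood test). It was 1 of 10 CYP4 genes called at an hour at which 37.4% of all genes tested were called, and 13.6% called lower. The TCDD group includes library P172_45, which had the highest unmapped share of the series (23.64%). It also includes libraries P172_47 and P172_48, whose profiles were most like 12 h. The *Cyp4b1* call held when any 1 of the 8 libraries was left out, with log2 changes from -1.25 to -0.91. Under the DRE-null label vehicle libraries measured 72.6, 67.4, 63.8 and 57.3 CPM and TCDD libraries 67.1, 62.8, 43.5 and 29.2 CPM, which overlapped, for a log2 change of -0.31 that did not pass. The difference between the labels was 0.64 and did not pass either (adjusted p = 0.351 by edgeR's quasi-likelihood test). Averaged over 2 to 12 h, *Cyp4b1* had -0.49 for WT (adjusted p = 0.0428 by edgeR's quasi-likelihood test), short of the fold threshold.

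The other 9 members at 8 h in libraries labelled WT ran from -0.89 for *Cyp4a14* to 0.28 for *Cyp4v3* on the log2 scale, with a median of -0.55 over the 10, against 0.00403 over all genes tested. *Cyp4f14* (-0.57, adjusted p = 0.0281) and *Cyp4f13* (-0.49, adjusted p = 0.0317) had an adjusted p under 0.05 by edgeR's quasi-likelihood test without reaching the fold threshold, which *Cyp4f14* reached with RLE scaling (-0.59). At that hour 3 of the 6 hepatocyte markers were lower with TCDD, and their sum ran from 76143 to 93526 CPM in vehicle and from 61766 to 65553 CPM with TCDD. The macrophage markers, of which 3 of 6 were lower, summed to 147 to 203 CPM in vehicle and stayed below that range with TCDD, down to 57.5 CPM. Their part in the *Cyp4b1* result was not tested. Of all genes tested 23.8% were called higher at that hour. Of 17 tested PPAR alpha targets 3 were higher and 6 lower, and of 13 omega-oxidation partners 2 were higher and 2 lower.

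*Cyp4f14* was lower late. At 96 h vehicle libraries labelled WT measured 2.60, 2.27, 3.67 and 5.93 CPM and TCDD libraries 1.35, 1.62, 1.14 and 1.64 CPM. The groups did not overlap and the log2 change was -1.23 (SE 0.31, adjusted p = 0.0124 by edgeR's quasi-likelihood test), at an hour with 15.1% of genes called, 5.00% of all lower. They include vehicle library P172_31, whose *Cyp1a1* went against its label, and TCDD library P172_65, whose counts were unequal between strands. At 120 h vehicle libraries measured 2.24, 8.65, 3.05 and 3.95 CPM and TCDD libraries 0.881, 0.334, 0.734 and 0.860 CPM. Again every TCDD library was below every vehicle library. The log2 change was -2.70 (SE 0.47, adjusted p = 0.0225 by edgeR's quasi-likelihood test), at an hour with 1.46% of genes called, 0.503% of all lower. That call was lost without any 1 of TCDD library P172_69, P172_70 or P172_72 or vehicle library P172_36, with log2 changes of -2.85, -2.47, -2.82 and -2.75 (adjusted p from 0.0575 to 0.0856 by edgeR's quasi-likelihood test). In 1 fit of all libraries neither call held, with -1.34 at 96 h (adjusted p = 0.482) and -2.65 at 120 h (adjusted p = 0.0595 by edgeR's quasi-likelihood test).

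Earlier, the groups of *Cyp4f14* overlapped in libraries labelled WT at 72 h, with 1.63, 2.53, 2.95 and 2.32 CPM in vehicle and 1.79, 2.54, 4.75 and 2.24 CPM with TCDD. By 72 h the level in vehicle was a small part of that at 2 h, so all of these late values are low ones. The sums of the 6 hepatocyte markers overlapped between the groups. At 96 h they came to 6668 to 12989 CPM in vehicle and 11985 to 13907 CPM with TCDD, with *Alb* higher and *Serpina1c* and *Tat* lower, and at 120 h to 2723 to 15717 and 4239 to 8017 CPM, with none called. Cholangiocyte markers summed to 517 to 1181 CPM in vehicle and 296 to 650 CPM with TCDD at 96 h, and to 450 to 865 and 246 to 434 CPM at 120 h. Their part in the *Cyp4f14* result was not tested.

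Under the DRE-null label *Cyp4f14* ran the same way at 72 h, with 1.84, 10.6, 4.49 and 2.86 CPM in vehicle and 1.54, 2.34, 2.42 and 0.833 CPM with TCDD. The groups overlapped and the log2 change of -1.48 did not pass (adjusted p = 0.338 by edgeR's quasi-likelihood test). Without vehicle library P172_97, whose profile was most like 120 h, it was -1.75 and passed (adjusted p = 0.0408 by edgeR's quasi-likelihood test). Cholangiocyte markers summed to 836 to 1020 CPM in vehicle and 366 to 648 CPM with TCDD at that hour, and their part was not tested. At 120 h the values were 7.24, 3.82, 4.57 and 5.41 CPM in vehicle and 1.39, 0.697, 5.44 and 2.40 CPM with TCDD, where library P172_143 alone reached the vehicle range, and the log2 change of -1.08 did not pass (adjusted p = 0.696). At 96 h vehicle libraries measured 5.63, 2.62, 7.35 and, in library P172_104, 443.1 CPM, and TCDD libraries 2.06, 1.70, 6.07 and 1.57 CPM. Without library P172_104 the log2 change at 96 h was -0.92 (adjusted p = 0.531 by edgeR's quasi-likelihood test).

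**Figure D3:**
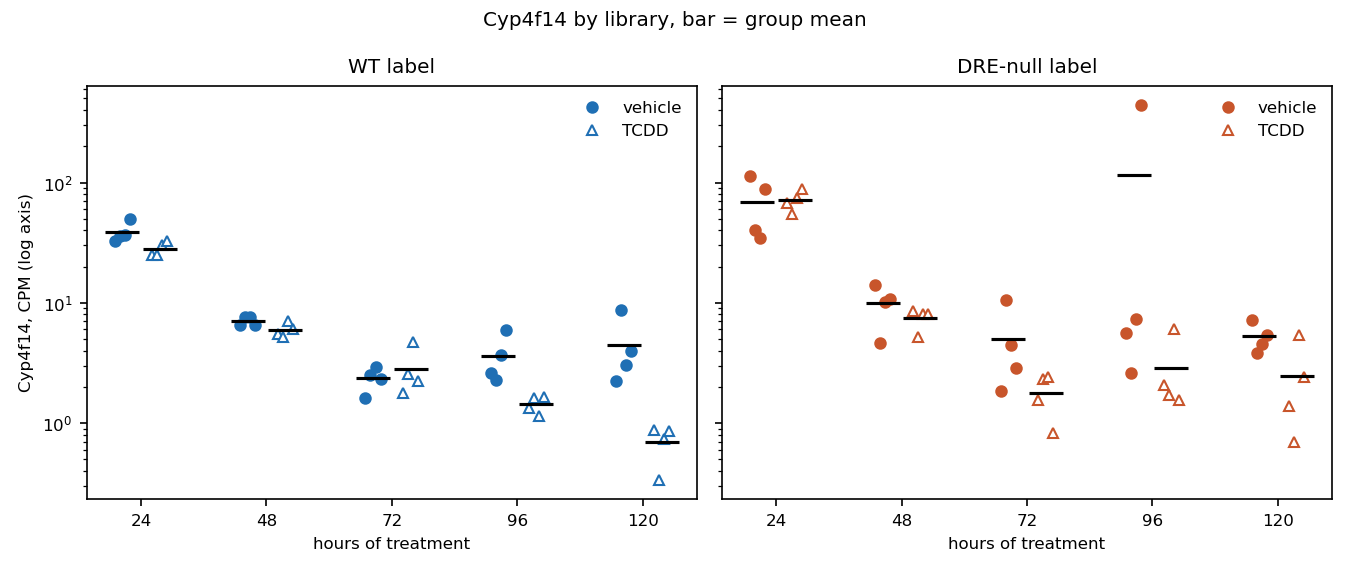
*Cyp4f14* is plotted by library in CPM on a log axis from 24 to 120 h, with filled circles for vehicle, open triangles for TCDD and a bar at each group mean, for the WT (left) and DRE-null label (right). In libraries labelled WT the triangles lie below all circles at 96 and 120 h, and the circle at 443.1 CPM in the right panel is library P172_104.

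Averages over 24 to 120 h put these hours together in 1 fit of all libraries. *Cyp4f14* had a log2 change of -0.89 for WT that did not pass (SE 0.28, adjusted p = 0.0604 by edgeR's quasi-likelihood test), where 2.27% of genes were called. No other CYP4 gene passed there, 1 of the 10 had an unadjusted p under 0.05, and DESeq2 called *Cyp4f14*. For DRE-null 3 genes were called lower, where 4.36% of genes were called, and 2.42% called lower: *Cyp4f14* with -1.64 (SE 0.28, adjusted p = 5.12e-06), *Cyp4a12b* with -1.91 (SE 0.50, adjusted p = 0.00694) and *Cyp4a12a* with -1.20 (SE 0.33, adjusted p = 0.0130 by edgeR's quasi-likelihood test).

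These averages rest to a large part on library P172_104. *Cyp4a12a* measured 4.81, 1.85, 0.601 and 586.6 CPM in DRE-null vehicle libraries at 96 h, the last in library P172_104, and 1.81, 3.08, 1.72 and 0.522 CPM with TCDD. *Cyp4a12b* measured 0.26, 0.161, 0.1002 and 190.8 CPM there and 0.210, 0.150, 0.197 and 0.139 CPM with TCDD. With libraries P172_80 and P172_104 left out the averages were -0.03 for *Cyp4a12a* (adjusted p = 1.00) and -0.31 for *Cyp4a12b* (adjusted p = 0.672), so both calls were lost. *Cyp4f14* was then called under both labels, with -0.77 for DRE-null (SE 0.17, adjusted p = 8.81e-04, 4.64% of genes called) and -0.87 for WT (SE 0.18, adjusted p = 2.57e-04, 2.77% called), all by edgeR's quasi-likelihood test. This exclusion was chosen after the values had been seen. The difference between the labels for *Cyp4f14*, DRE-null minus WT, was -0.76 (SE 0.39) with all libraries and 0.10 (SE 0.24) without the pair, and neither passed (adjusted p = 1.00 by edgeR's quasi-likelihood test).

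The other averages passed in no case. Averaged over 2 to 12 h none of the 10 genes was called under either label, where 16.1% of genes were called for WT and 1.59% for DRE-null, and 1 gene for WT and 0 for DRE-null had an unadjusted p under 0.05. DESeq2 called none of them there. *Cyp4v3* averaged -0.02 (SE 0.16) over 2 to 12 h and -8e-04 (SE 0.14) over 24 to 120 h for WT. *Cyp4f13* averaged -0.25 (SE 0.13) and -0.10 (SE 0.12). *Cyp4a14* averaged -0.14 (SE 0.59) over 2 to 12 h and 0.09 (SE 0.87) over 24 to 120 h, so a change of 1 on the log2 scale in either direction would not have been detectable. At 120 h 7 of the 10 genes passed the filter on low counts, and *Cyp4a10*, *Cyp4a12b* and *Cyp4a14* were no longer testable.

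**Figure D4:**
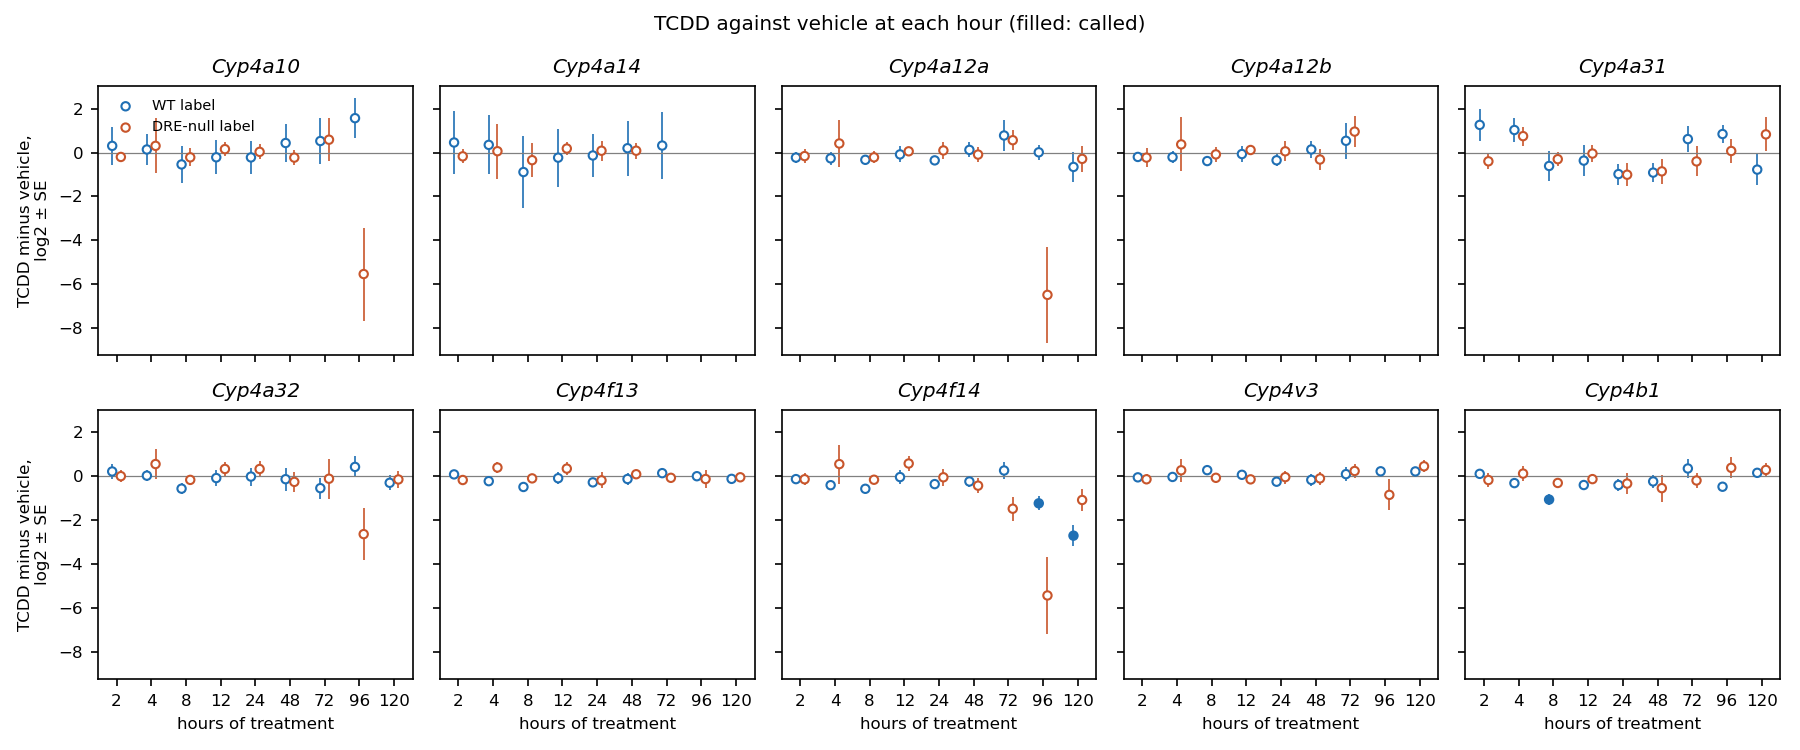
Each panel gives, for 1 CYP4 gene, the log2 change with TCDD against vehicle and its SE at each hour, in blue for the WT and orange for the DRE-null label, filled where it passed the test. The filled points are *Cyp4b1* at 8 h and *Cyp4f14* at 96 and 120 h under the WT label, and the low orange points at 96 h include library P172_104.

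The 6 genes used to check the AHR response (*Cyp1a1*, *Cyp1a2*, *Cyp1b1*, *Ahrr*, *Tiparp* and *Nqo1*) were higher with TCDD on average over 24 to 120 h under both labels, with *Cyp1a1* at 5.43 for WT and 8.08 for DRE-null on the log2 scale. The WT average includes 3 libraries whose *Cyp1a1* went against the treatment label. They are vehicle libraries P172_21 (3252 CPM) and P172_31 (1640 CPM) and TCDD library P172_64 (27.6 CPM). Of all genes tested, 1.37% were called higher and 0.901% lower for WT, and 1.93% and 2.42% for DRE-null. Of 18 PPAR alpha targets 4 were higher for WT (*Acaa1b* 1.41, *Acot1* 1.16, *Fabp1* 1.68 and *Fgf21* 1.79) and 3 for DRE-null, and none was lower. Omega-oxidation partners were higher in 3 cases of 13 for WT (*Adh1* 2.28, *Adh7* 4.23 and *Por* 0.94) and in 4 for DRE-null, and none was lower. *Nr1i3* was higher by 2.79 and 3.17. *Cyp4f15*, a further CYP4F gene, had -0.80 for WT (adjusted p = 0.24) and was called lower for DRE-null with -1.10 (adjusted p = 0.0314 by edgeR's quasi-likelihood test). Of the 6 hepatocyte markers *Apoa1*, *Serpina1c* and *Tat* were lower under both labels, with -1.18 and -1.03 for *Apoa1*. Whether the lower markers have a part in the lower *Cyp4f14* was not tested. All DRE-null averages given here, those of *Cyp4f15* and the markers among them, include vehicle library P172_104 (96 h). Its profile was most like 4 h, and its hepatocyte markers summed to 102120 CPM. Values for these genes without that library are not given here, so their DRE-null calls may rest on it.

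Between the labels, none of the 10 genes was called in vehicle at any hour, where 0.0576% of genes were called at 8 h, 3.68% at 12 h and 0% at the other hours, and 10 of 83 tests had an unadjusted p under 0.05. DESeq2 called none there. No gene of the family was called for a difference in the TCDD response, by hour (0.00715% of genes called at 48 h, 0.00695% at 72 h and 0% otherwise, 6 of 85 tests with an unadjusted p under 0.05) or averaged (0.539% early and 0.117% late, 3 of 20 tests), and DESeq2 called none of these either.

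The PPAR alpha-responsive pair varied in a regular way among the libraries of a group, a pattern that was seen in the data first and is given without a test. Within the groups labelled WT, the libraries fell into a low and a high pair by their numbers. At 2 h *Cyp4a14* measured 6.50 and 14.1 CPM in vehicle libraries P172_01 and P172_02, and 453.7 and 216.8 CPM in libraries P172_03 and P172_04. With TCDD libraries P172_37 and P172_38 measured 9.55 and 11.3 CPM, and libraries P172_39 and P172_40 measured 424.8 and 517.8 CPM. *Cyp4a10* followed with 60.7 and 51.1 CPM against 429.1 and 641.5 CPM with TCDD. In both genes the higher-numbered pair lay above the lower-numbered pair in 12 of the 12 groups from 2 to 48 h, which 3 of 12229 genes did (0.0245%), the other being *Cyp2c23*.

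Neither *Cyp4a12* gene shared this. *Cyp4a12a* had the higher-numbered pair above in 0 groups and below in 6, and *Cyp4a12b* above in 2 and below in 2. *Cyp4a31* had it above in 7 groups and *Cyp4b1* in 5, both below in 0, and *Cyp4a32* above in 4 and below in 1. *Cyp4f14* was split evenly, above in 4 and below in 4, and *Cyp4f13* (above in 1, below in 6) and *Cyp4v3* (0 and 5) ran the other way. Among the PPAR alpha targets, *Acaa1b*, *Pdk4* and *Vnn1* followed in 7 of 12, *Acot1*, *Ehhadh* and *Fabp1* in 6, and *Cpt1a* in 2. In groups labelled DRE-null a split in this direction did not recur as a rule. *Cyp4a10* had the higher-numbered pair above in 2 groups and below in 4, and *Cyp4a14* in 3 and 4. No gene had the higher-numbered pair above in at least 10 of 12 groups. Over all genes the opposite direction, with the lower-numbered pair above, was not counted. At 8 h in DRE-null vehicle *Cyp4a14* measured 126.1, 110.2, 16.9 and 18.6 CPM, so the lower-numbered libraries were the high ones there. The labels give no batch, animal or plate for these numbers, and what they stand for was not tested. The within-group spread of both genes, and with it the SE of their TCDD changes, includes this split.

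**Figure D5:**
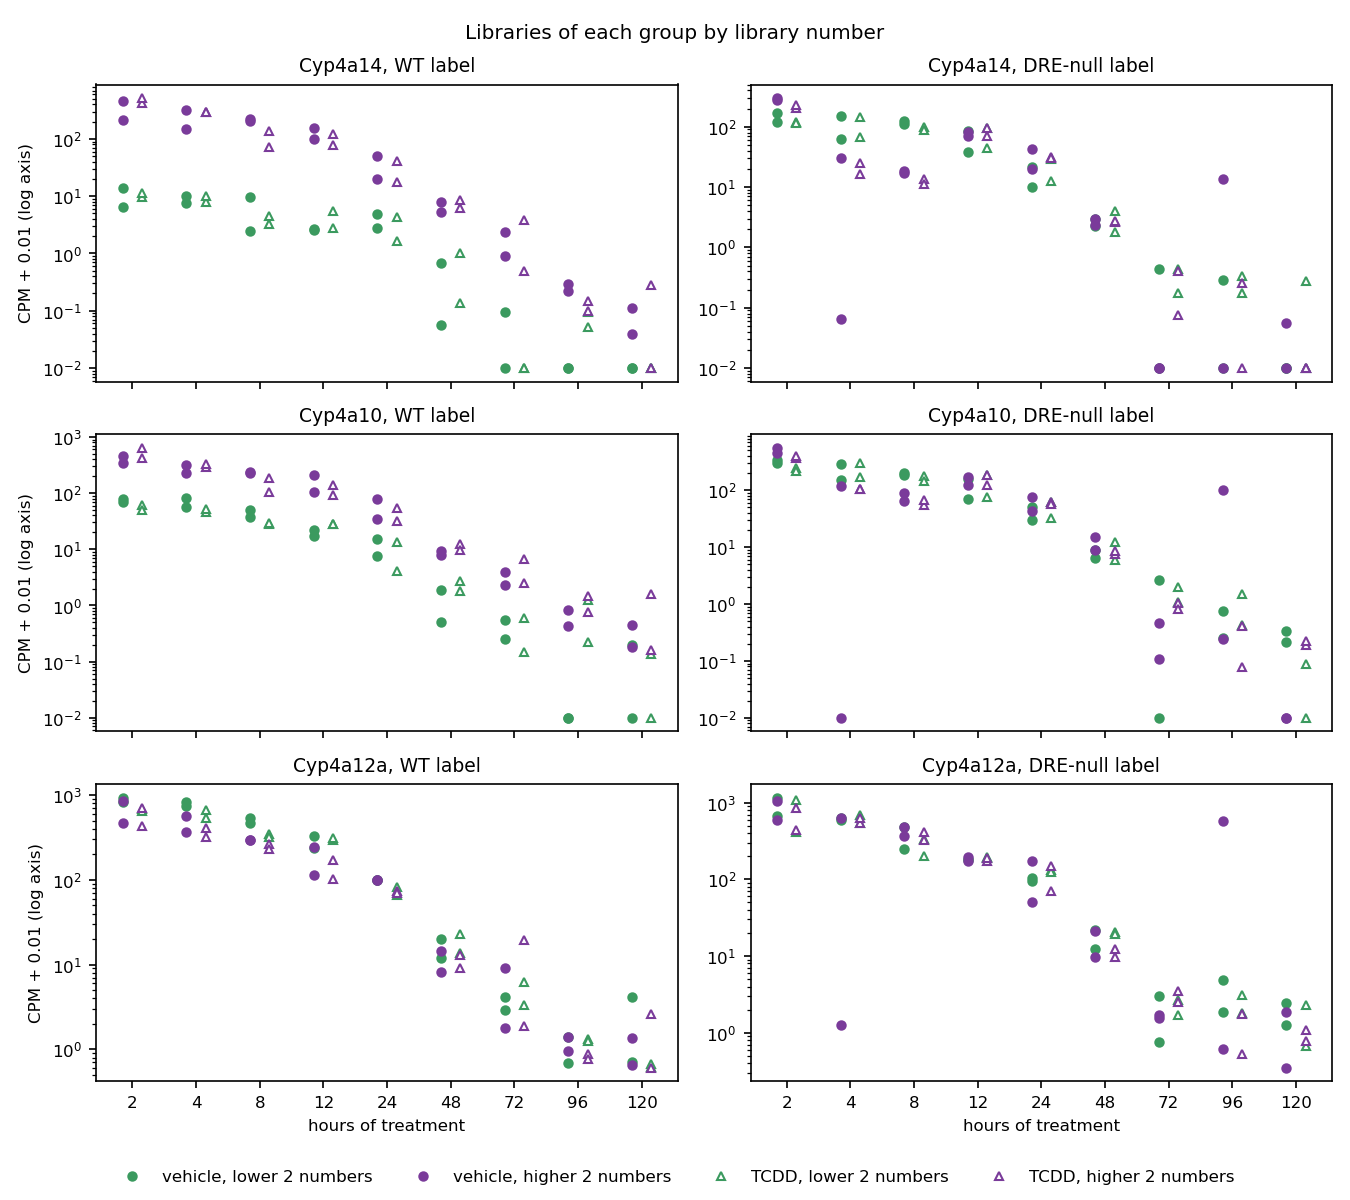
*Cyp4a14*, *Cyp4a10* and *Cyp4a12a* are plotted by library in CPM plus 0.01 on a log axis against hours, for the WT (left) and DRE-null label (right), with the 2 lower-numbered libraries of each group in green and the 2 higher-numbered in purple, circles for vehicle and triangles for TCDD. In groups labelled WT up to 48 h purple lies above green in all 12 groups for *Cyp4a14* and *Cyp4a10*, and in none for *Cyp4a12a*.

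Across the 36 group means, the patterns of the members were compared on log2 of CPM plus 0.5 as a description, since all groups share the fall with time. The means include libraries P172_80 and P172_104, whose profiles fit another hour, and r without them was not computed. *Cyp4a12a* and *Cyp4a12b*, whose sequences are close, were the most alike pair at r = 0.999, and *Cyp4f13* and *Cyp4b1* the least at r = 0.307. Outside the family, the 3 genes most like *Cyp4a10* were *Cyp2c54*, *Hsd17b6* and *C8g* (r = 0.991 to 0.996), and those most like *Cyp4a14* were *Cyp2c37*, *Cyp2c54* and *Mup22* (r = 0.986 to 0.991). *Cyp2e1*, *Hsd17b6* and *Slc27a5* were the closest to both *Cyp4a12a* and *Cyp4a12b* (r = 0.994 to 0.996). *Cyp4f14* was most like *Pemt*, *Inmt* and *Khk* (r = 0.99 to 0.991), *Cyp4v3* like *Pm20d1*, *Mgst1* and *Bbox1* (r = 0.978 to 0.98), and *Cyp4f13* like *Pink1*, *Acy3* and *Iah1* (r = 0.978 to 0.984). *Cyp4a32* was most like *Cd74*, *Clec4f* and *Rdh16* (r = 0.988 to 0.993), *Clec4f* being a Kupffer cell marker. Which cells the *Cyp4a32* counts came from was not tested. The closest to *Cyp4a31* (*Capn8*, *Adh6-ps1* and *Hapln4*, r = 0.927 to 0.932) and to *Cyp4b1* (*S100a16*, *Tysnd1* and *Oxa1l*, r = 0.912 to 0.926) were less close.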

How the data were processed

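Hepatocyte RNA was sequenced in pairs. The authors trimmed reads with Trimmomatic 0.39, checked them with FastQC 0.11.3, aligned them to GRCm39 with STAR 2.7 and deposited raw counts of uniquely mapped pairs per gene, of which the unstranded column was used here. Lines that name no gene (16.8% to 48.0% of pairs per library) were left out. Symbols, lengths and sequences came from GENCODE M21 and RefSeq on GRCm38. Genes were kept by filterByExpr (count minimum 10, total minimum 15), scaled by TMM and tested with edgeR 4.0.16 in R 4.3.3 (robust quasi-likelihood test, Benjamini-Hochberg adjustment over all genes tested). A call needed an adjusted p under 0.05 with at least a 1.5-fold difference. Hours were fitted apart, the averages in 1 fit of all libraries, and time in culture in 1 fit of the vehicle libraries of a label. The CPM use TMM factors over all libraries. The members and lists were chosen with earlier results of these data known. Genes outside the family were named from those lists, or as the 3 most alike by r among genes of at least 1 CPM. Values per library were to be given for members called with TCDD, and were added for time in culture after they had been seen. The tests were tried on simulated counts. Alternatives were RLE scaling, DESeq2 1.42.0, other filters and thresholds, summed paralogs, 1 fit of all libraries, the unmapped share as a covariate and leaving out 1 library at a time (every library for TCDD by hour, 12 per label for time in culture and 8 for the averages). Added after the values were seen were library totals, a block by library order and leaving out libraries. Intervals of pooled ratios cover counting error only. The sequence tables used here hold 5 of the 10 promoters. Some genes counted in the lists are not reported by name here.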

Additional observations from a re-analysis of the deposited data

Results flagged for a closer look

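Of 360 groups of 4 libraries (10 genes in 36 groups), 44 had a highest or lowest library standing apart by Dixon's criterion, where chance gives about 1 in 20, or 18. Library P172_104 accounted for 8 of them, 1 for each of 8 genes, and library P172_80 for 1. In library P172_104, labelled DRE-null, vehicle and 96 h, *Cyp4a12a* stood apart with 586.6 CPM, *Cyp4f14* with 443.1 CPM, *Cyp4v3* with 339.6 CPM, *Cyp4a12b* with 190.8 CPM, *Cyp4f13* with 130.97 CPM, *Cyp4a10* with 102.5 CPM and *Cyp4a14* with 13.6 CPM. The 3 DRE-null vehicle libraries at 4 h other than P172_80 had 589.1 to 641.2 CPM of *Cyp4a12a*, 422.0 to 525.2 CPM of *Cyp4f14* and 181.1 to 273.9 CPM of *Cyp4a12b*, while their *Cyp4v3* (441.7 to 526.4 CPM), *Cyp4a10* (119.1 to 287.4 CPM) and *Cyp4a14* (30.18 to 149.6 CPM) lay above library P172_104 and their *Cyp4f13* (93.65 to 115.5 CPM) below it. The hepatocyte markers of library P172_104 summed to 102120 CPM. In library P172_80, labelled DRE-null, vehicle and 4 h, *Cyp4a12a* stood apart with 1.25 CPM and the hepatocyte markers summed to 10817 CPM.

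*Cyp4f14* stood apart in library P172_130 (DRE-null, TCDD, 48 h), low with 5.18 CPM, and in library P172_139 (DRE-null, TCDD, 96 h), high with 6.07 CPM. *Cyp4a31* stood apart in library P172_34 (WT, vehicle, 120 h) with 4.00 CPM. *Cyp4a32* stood apart in library P172_20 (WT, vehicle, 24 h) with 6.59 CPM.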

How the results depend on the processing

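The counts of CYP4 genes called with TCDD moved with the settings as follows. By hour for WT (3 as reported), 1 fit of all libraries called 1, RLE scaling 4 (adding Cyp4f14 at 8 h), no filter on low counts 4 (adding Cyp4a10 at 96 h), DESeq2 5 and no fold threshold 6. By hour for DRE-null (0), 1 fit of all libraries called 5 and no filter on low counts 1. The difference between labels by hour (0) became 4 and the labels in vehicle by hour (0) became 5 in 1 fit of all libraries. These calls, and the 5 for DRE-null by hour in that fit, were all at 96 h, the hour of library P172_104. Averaged over 2 to 12 h for WT (0), no fold threshold called 1. Averaged over 24 to 120 h for WT (0), DESeq2, library totals, the unmapped share as a covariate, leaving out libraries P172_80 and P172_104, and leaving out 8 libraries called 1 each. For DRE-null (3) the last 3 of these settings called 1 each. The 8 libraries left out were P172_21, P172_31, P172_40, P172_64, P172_65, P172_80, P172_97 and P172_104. They are not the set that stood apart by Dixon's criterion. From 24 to 120 h in vehicle for DRE-null (8), summed paralogs gave 5 called among fewer genes.

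The Cyp4f14 difference between labels over 24 to 120 h turned from -0.76 to 0.10 without libraries P172_80 and P172_104 and to 0.063 without the 8. With library totals Cyp4b1 in WT culture from 2 to 120 h turned from -1.05 to 0.16. With the unmapped share as a covariate the DRE-null fall of Cyp4b1 (-1.98, adjusted p = 0.0584 by edgeR's quasi-likelihood test) and of Cyp4f13 (-0.71, adjusted p = 0.225) no longer passed. In 1 fit of all libraries Cyp4f14 for WT had -1.34 at 96 h (adjusted p = 0.482) and -2.65 at 120 h (adjusted p = 0.0595 by edgeR's quasi-likelihood test).

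Leaving out 1 library at a time covered every library of a TCDD comparison by hour, the 12 libraries of 2, 24 and 120 h for time in culture, and for the averages only the 8 libraries listed above. In these runs counts ranged from 2 to 5 by hour for WT (5 without TCDD library P172_48 at 8 h), 0 to 1 by hour for DRE-null (1 without library P172_97), 0 to 1 averaged late for WT (1 without library P172_80 or without P172_104) and 1 to 3 averaged late for DRE-null (1 without P172_104). In vehicle they ranged for WT and DRE-null from 7 to 8 and 5 to 6 between 2 and 24 h and from 8 to 9 and 7 to 8 between 24 and 120 h. They stayed 10 from 2 to 120 h under both labels, and 0 averaged early and for the averaged differences. The Cyp4f14 difference ranged from -0.81 to 0.10. RLE scaling called 7 in place of 6 from 2 to 24 h in DRE-null vehicle, and apart from this and the WT count by hour it gave the reported counts. The labels pair no libraries. A block by order of library numbers, added after the values were seen, left the 3 calls for WT by hour in place. At each hour and label, deviations from the group mean were correlated between vehicle and TCDD libraries. Libraries at the same position in that order had a mean r between -0.006 and 0.518, and those at other positions between -0.173 and 0.001. For WT at 24 and 48 h and DRE-null at 24 h all 4 positions matched best with themselves, and elsewhere 1 to 3 did. Whether the order stands for a pairing is not stated in the labels.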
